A study of Homo sapiens with 9 samples.

Results

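Expression of 10 genes of the Notch pathway was followed in T47D cells, an established human line of luminal breast cancer in which progesterone receptor is present. The genes were the receptors NOTCH1, NOTCH2 and NOTCH3, the ligands JAG1, JAG2 and DLL1, and the target genes HES1, HEY1, HEY2 and NRARP. They were chosen by symbol, with earlier results of these data known. They are 10 of the 18417 genes that the arrays measured with a probe set of a single gene symbol. Each had 1 such probe set, so none had to be chosen over another, and all 10 were tested. All cells carried pHUSH-Elf5-shRNA, a retroviral vector whose hairpin RNA against ELF5 is made once doxycycline is given. ELF5 is an ETS transcription factor that drives mammary cells towards milk-producing alveoli. The 9 Affymetrix arrays formed 3 groups of 3: 10 nM ORG2058, a synthetic progestin, with 0.1 µg/ml doxycycline for 4 days; 10 nM ORG2058 alone for 4 days; and ethanol vehicle, for which the labels state no time. The RNA of each array came from cells pooled from 3 wells. Doxycycline without ORG2058, or with another hairpin, was not analysed here, so an effect of doxycycline itself and one of the hairpin cannot be told apart.

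Notch receptors are cut by proteases after they bind a ligand of the Jagged or Delta type on a neighbouring cell. ADAM proteases and then gamma-secretase release the intracellular part, which enters the nucleus, binds the DNA-binding protein RBPJ and recruits Mastermind proteins to switch on genes such as those of the HES and HEY repressors and NRARP, itself an inhibitor of the pathway. In the mammary gland the pathway takes part in the choice of luminal fate, and in mice loss of Elf5 has been reported to raise Notch signalling there.

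The 10 genes did not move in 1 direction under progestin. NOTCH2 and HES1 rose and HEY2, NRARP, NOTCH1, NOTCH3, JAG1 and JAG2 fell, while DLL1 and HEY1 did not pass the test. Thus 8 of 10 members were called at an adjusted p of 0.05 for ORG2058 against vehicle, where 29.0% of all 21214 probe sets tested were called. In the same 8 the 2 groups of arrays did not overlap, as in 42.3% of all probe sets. The 2 members called higher compare with a share of 13.4% of all probe sets, and the 6 called lower with a share of 15.6%. Because the members were chosen with earlier results known, these shares are a description and not a test of the pathway. The largest change was that of HEY2, 12.1-fold lower. Adding doxycycline, which held ELF5 down, called none of the 10.

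All values are the authors' deposited log2 values, 1 per probe set and array, and a change is a difference of group means on that scale. Each comparison was tested with limma over all 21214 named probe sets with Benjamini-Hochberg adjustment. Every adjusted p and standard error (SE) below comes from that fit, except where a left-out array or another setting is named. Array medians over these probe sets ranged from 7.19 to 7.28, and rank correlations between arrays of a group were 0.989 to 0.995. With 3 arrays against 3, an exact permutation test of a single gene cannot give a p below 0.1, and the number of arrays limits the precision. The file holds no detection calls, so how far a low value lies above background is unknown. Of 12 luminal epithelial markers 11 lay above the median of all probe sets, with KRT8, KRT18 and KRT19 at 12.41 or above on every array; 1 of 5 measured basal markers, 1 of 6 stromal, 1 of 4 endothelial and 1 of 4 immune markers did. The ELF5 probe set averaged 10.42 ± 0.0608 with ORG2058 and doxycycline, 11.28 ± 0.0455 with ORG2058 and 10.17 ± 0.109 with vehicle (mean ± SD, n = 3 arrays each). Its drop with doxycycline was -0.87 (SE 0.08, adjusted p = 0.029), a call lost (adjusted p between 0.0715 and 0.149) without any 1 of 8 arrays, all but vehicle replicate 3.

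**Figure D1:**
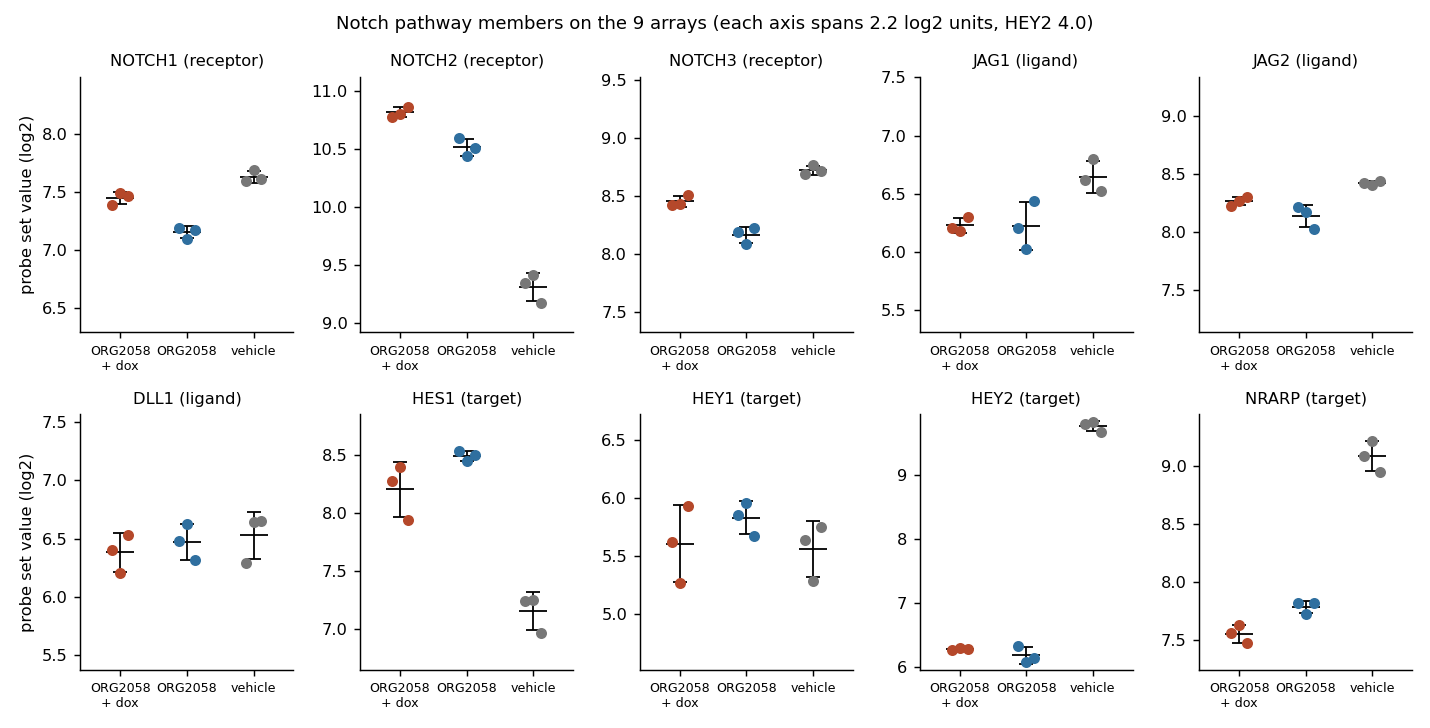
Probe set values (log2) of the 10 Notch genes on each array, by group; points are arrays, and bars the mean and SD of 3 arrays. With ORG2058, HEY2 lay at 6.08 to 6.32 against 9.68 to 9.84 with vehicle, and HES1 and NOTCH2 lay above their vehicle arrays.

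The DNA in front of the 4 members that changed by more than 2-fold under progestin (HEY2, HES1, NRARP and NOTCH2) is shown because RBPJ sites near the start are how Notch is known to act on HES1. Each sequence is the 250 bases before the annotated gene start in RefSeq (GRCh38.p14), read on the strand of the gene, and capitals mark TGGGAA, the core of the RBPJ motif, or its reverse complement.
HES1, chr3:194135898-194136147, plus strand: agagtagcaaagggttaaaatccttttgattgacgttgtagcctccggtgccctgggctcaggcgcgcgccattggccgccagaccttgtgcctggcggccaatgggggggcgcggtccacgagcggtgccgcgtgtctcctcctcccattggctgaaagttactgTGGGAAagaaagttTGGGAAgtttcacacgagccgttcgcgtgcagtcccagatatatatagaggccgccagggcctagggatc
HEY2, chr6:125749382-125749631, plus strand: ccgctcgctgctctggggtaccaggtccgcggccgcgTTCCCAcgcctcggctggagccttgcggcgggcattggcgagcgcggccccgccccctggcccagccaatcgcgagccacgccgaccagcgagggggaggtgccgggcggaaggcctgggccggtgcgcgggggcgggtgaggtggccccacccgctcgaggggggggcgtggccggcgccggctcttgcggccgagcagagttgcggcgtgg
NRARP, chr9:137302272-137302521, minus strand: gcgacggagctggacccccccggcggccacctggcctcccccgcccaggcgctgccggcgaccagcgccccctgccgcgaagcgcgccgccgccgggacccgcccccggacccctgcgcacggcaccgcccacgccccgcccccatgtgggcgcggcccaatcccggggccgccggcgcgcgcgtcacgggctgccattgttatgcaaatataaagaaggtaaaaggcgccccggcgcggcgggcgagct
NOTCH2, chr1:120069663-120069912, minus strand: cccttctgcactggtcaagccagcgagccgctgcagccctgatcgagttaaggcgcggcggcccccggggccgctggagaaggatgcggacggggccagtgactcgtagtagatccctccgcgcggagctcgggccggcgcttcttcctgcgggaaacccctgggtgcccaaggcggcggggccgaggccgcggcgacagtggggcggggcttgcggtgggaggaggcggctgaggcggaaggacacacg
HES1 holds 2 copies of TGGGAA on the strand of the gene, at bases 84 to 79 and 70 to 65 before the start. HEY2 holds 1 copy on the opposite strand, at bases 213 to 208, and NRARP and NOTCH2 hold none in this window. Over both strands, 20.8% of 35116 RefSeq promoter windows of this length hold at least 1 copy and 2.90% hold at least 2. A promoter window was matched for 8 of the 10 members, and 2 of these 8 hold the motif. The half-site of the progesterone receptor, TGTTCT, searched on both strands, is in 0 of the 8 windows and in 12.4% of all windows. Of 3 further motifs searched on both strands, the core AGGAAG of ETS factors such as ELF5 is in 1 of the 8 windows, that of NOTCH2, and in 28.7% of all windows. The N-box CACNAG of HES and HEY repressors is in 2 of the 8, those of HES1 and NOTCH3, and in 32% of all, and their E-box CACGTG in 0 of the 8 and in 6.34% of all. The members' count for the RBPJ core, 2 of 8, is near the share of all windows. These matches are letters found in a window and do not show that a factor binds there.

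HEY2, a repressor of the hairy and enhancer-of-split family and a direct target of Notch in several tissues, fell further than any other member. Its values were 6.32, 6.08 and 6.13 on the 3 ORG2058 arrays, against 9.80, 9.84 and 9.68 on the 3 vehicle arrays. Every ORG2058 array lay more than 3 log2 units below every vehicle array. The change was -3.60 (SE 0.08, 95% confidence interval -3.79 to -3.41, adjusted p = 8.71e-08), which placed HEY2 44th from the lowest among the 21214 probe sets. On a scale that shrinks changes of dim probe sets (log2 of the linear value plus 16) it was -3.34. In these RNA pools a loss of the message from every cell and a loss of cells that carry it cannot be told apart. With doxycycline added, HEY2 stayed low at 6.26, 6.29 and 6.27.

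NRARP, the Notch-regulated ankyrin repeat protein that binds the receptor's intracellular part and limits its activity, fell as well. It was at 7.82, 7.72 and 7.82 with ORG2058, against 9.09, 9.22 and 8.96 with vehicle. The groups lay more than 1 log2 unit apart, and the change was -1.30 (SE 0.09, adjusted p = 1.57e-05), or 2.46-fold lower. It was the 410th lowest of all probe sets.

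HES1, a repressor that acts downstream of Notch and also answers to other signals, went the other way. Its values were 8.53, 8.45 and 8.50 with ORG2058, against 7.24, 7.25 and 6.96 with vehicle. The ORG2058 arrays were within 0.1 of each other and all above the vehicle arrays. The rise of 1.34 (SE 0.13, adjusted p = 0.000126) corresponds to 2.53-fold and was the 342nd highest of all probe sets. HES1 and HEY2, both of which encode repressors of the same family, thus changed in opposite directions on the same arrays.

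HEY1, the close relative of HEY2, did not pass the test. It ranged from 5.68 to 5.96 with ORG2058 and from 5.29 to 5.75 with vehicle, so the groups overlapped. Its change was 0.27 with a 95% confidence interval of -0.15 to 0.69 (adjusted p = 0.325). How far these low values lie above background is unknown, so a fall of HEY1 could go unseen on these arrays.

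Among the receptors, NOTCH2 rose and NOTCH1 and NOTCH3 fell. NOTCH2 was at 10.59, 10.45 and 10.51 with ORG2058, against 9.35, 9.41 and 9.18 with vehicle. The groups were more than 1 log2 unit apart, and the change was 1.20 (SE 0.08, adjusted p = 1.85e-05), or 2.30-fold. NOTCH2 has near-identical partial copies in the genome, the NOTCH2NL genes. A second probe set, annotated to NOTCH2, NOTCH2NLA and NOTCH2NLB together, changed by 1.25 (SE 0.07, adjusted p = 5.76e-06), so the rise was of similar size on both, and the share of each gene in the signal was not tested.

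NOTCH1 was at 7.19, 7.10 and 7.18 with ORG2058, against 7.60, 7.69 and 7.61 with vehicle. No ORG2058 array reached the lowest vehicle array, and the change was -0.48 (SE 0.07, adjusted p = 0.000952), or 1.39-fold lower. NOTCH3, a receptor known from vascular smooth muscle and also expressed in luminal breast cells, was at 8.19, 8.09 and 8.22 with ORG2058, against 8.69, 8.77 and 8.72 with vehicle. It changed by -0.56 (SE 0.07, adjusted p = 0.000458), or 1.47-fold lower, again without overlap. The calls of NOTCH1, NOTCH2 and NOTCH3 held with any 1 array left out and under every other setting tried.

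The ligands moved less. JAG2 was at 8.21, 8.17 and 8.03 with ORG2058, against 8.42, 8.40 and 8.44 with vehicle, a change of -0.29 (SE 0.07, adjusted p = 0.0168). JAG1 was at 6.20, 6.02 and 6.44 with ORG2058, against 6.61, 6.80 and 6.52 with vehicle. Its highest ORG2058 array lay just under its lowest vehicle array, and the change was -0.42 (SE 0.12, adjusted p = 0.029). The JAG1 call was lost without vehicle replicate 1 (adjusted p = 0.0693) or 2 (0.0972), without progestin replicate 1 (0.0781) or 2 (0.0845), and when only the 2 groups were fitted (0.0685). That of JAG2 was lost without vehicle replicate 1 (0.0568) or progestin replicate 3 (0.053). DLL1, a ligand of the Delta type, ranged from 6.32 to 6.63 with ORG2058 and from 6.29 to 6.65 with vehicle. Its change was -0.06, with a 95% confidence interval of -0.37 to 0.26 (adjusted p = 0.804).

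**Figure D2:**
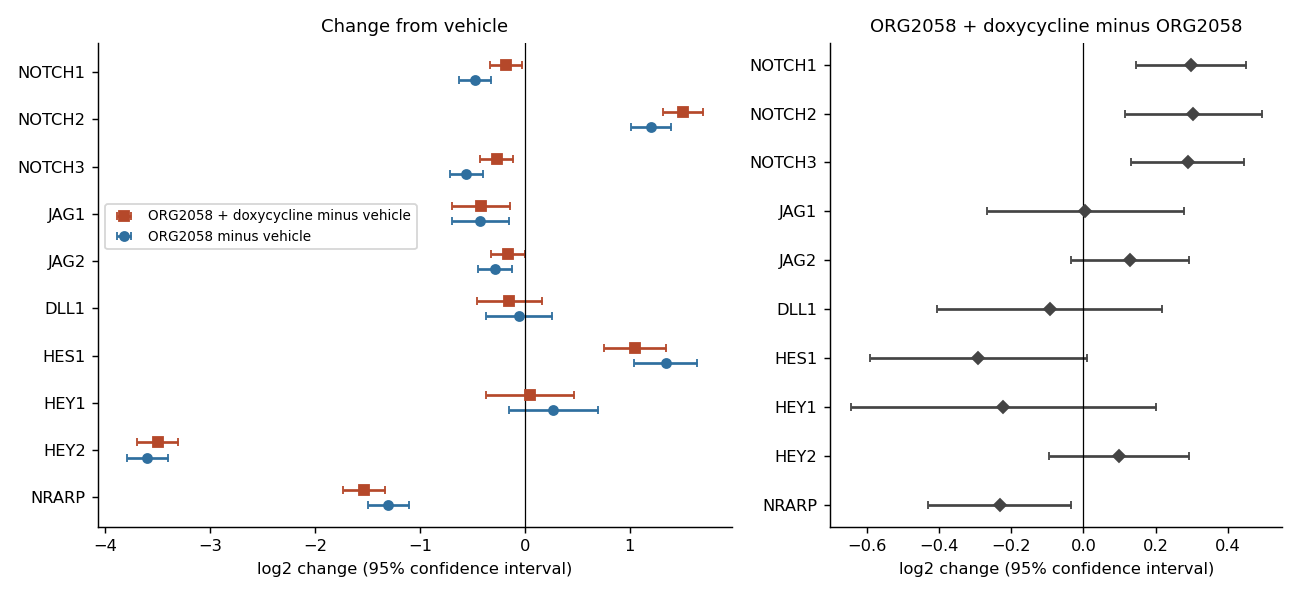
Log2 changes of the 10 members with 95% confidence intervals from the limma fit; left, ORG2058 plus doxycycline minus vehicle (squares) and ORG2058 minus vehicle (circles), which share the vehicle arrays; right, ORG2058 plus doxycycline minus ORG2058. HEY2 is at -3.50 and -3.60 on the left, and the 3 receptors lie at 0.29 to 0.30 on the right.

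The rest of the pathway was described with 8 lists by role that hold 83 further genes, of which 77 had a probe set with a single symbol. These lists, too, were chosen with earlier results known, so their shares beside those of all probe sets are a description. For ORG2058 against vehicle 17 of the 77 rose and 13 fell (39.0% called, against 29.0% of all probe sets), with a median change of 0.06 against 0.02 for all probe sets. Among the 8 genes listed as other ligands and receptors 0 were called, and NOTCH4 was at 0.06. The ligand-like DNER was the 1 of the 8 with an unadjusted p under 0.05 (limma, change 0.22, adjusted p = 0.0648). JAGN1 is in this list, and so among the 77, though it encodes neither a Notch ligand nor a Notch receptor. With ORG2058, CNTN1 averaged 4.14, DLL3 5.77, DLL4 6.33 and NOTCH4 6.68. How far such low values lie above background is unknown, so a change of these genes could go unseen.

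Genes for cutting the receptor went both ways, with 3 of 8 higher and 2 lower, where 13.4% of all probe sets were called higher and 15.6% lower. ADAM10 and ADAM17, the proteases of the first cut, fell by 0.39 (adjusted p = 0.00366) and 0.57 (adjusted p = 0.00663) on the log2 scale. NCSTN, which encodes the gamma-secretase subunit nicastrin, rose by 0.48 (SE 0.08, adjusted p = 0.0024), PSEN2, a catalytic subunit, by 0.40 (adjusted p = 0.0224), and FURIN, which processes the receptor on its way to the surface, by 0.47 (adjusted p = 0.0135). The PSEN2 call was lost without progestin replicate 1 (adjusted p = 0.0698) or 2 (0.0568), and that of FURIN without progestin replicate 1 (0.0511). Of 5 genes for sugar transfer to the receptor only RFNG was called, a share of 20% against 29.0% of all probe sets. RFNG was at 0.19 (adjusted p = 0.0478), a call lost (adjusted p between 0.0634 and 0.145) without any 1 of 8 arrays, all but vehicle replicate 3. LFNG, the fringe enzyme that tunes the choice of ligand, was at -0.36 (adjusted p = 0.0813).

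Of 12 trafficking and turnover genes 4 rose and 0 fell, and this share of 33.3% called is near the 29.0% of all probe sets. The highest were the Deltex proteins DTX4 (8.83 with ORG2058, against 7.12 with vehicle, change 1.71, SE 0.17, adjusted p = 0.000151) and DTX2 (7.70 with ORG2058, against 6.47 with vehicle, change 1.23, SE 0.15, adjusted p = 0.000483). Deltex proteins are ubiquitin ligases that regulate Notch receptors. AAK1, a kinase of endocytosis, rose by 0.53, and NUMB, which sorts the receptor away from the surface, by 0.24 (adjusted p = 0.0492). The NUMB call was lost (adjusted p between 0.0582 and 0.142) without any 1 of the 9 arrays, and a second AAK1 probe set was not called (0.35, adjusted p = 0.119). DTX1 and DTX3 were at 0.24 (adjusted p = 0.299) and -0.06 (adjusted p = 0.779).

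In the nuclear activating complex 1 of 9 genes rose and 2 fell, again a share of 33.3% near that of all probe sets. RBPJ itself fell by 0.48 on the log2 scale (SE 0.09, adjusted p = 0.0035), and MAML3, a Mastermind coactivator, by 0.35 (adjusted p = 0.0191). The MAML3 call was lost (adjusted p between 0.0575 and 0.0741) without vehicle replicate 1 or 2 or progestin replicate 2 or 3. KAT2B, a histone acetyltransferase, rose by 0.55 (SE 0.09, adjusted p = 0.002).

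The repressor complex, which holds RBPJ targets silent when Notch is off, had 4 of 11 genes higher and 4 lower (72.7% called, against 29.0% of all probe sets). TLE1, a Groucho corepressor that partners HES proteins, rose by 0.98 (SE 0.07, adjusted p = 2.61e-05), CTBP2 by 0.62 and SPEN, which tethers corepressors to RBPJ, by 0.47. The histone deacetylases HDAC1 and HDAC2 fell by 0.53 and 0.52 and the corepressor CTBP1 by 0.40, so that both CTBP genes were called, in opposite directions. Of 10 other HES and HEY family genes only HES4 was called, a share of 10% against 29.0% of all probe sets. HES4 was at 0.37 (adjusted p = 0.0436). Its call was lost (adjusted p between 0.0668 and 0.132) without any 1 vehicle array, doxycycline replicate 1, or replicate 1 or 3 of progestin alone. HES5 and HEYL were at -0.21 and -0.23 (adjusted p = 0.242 and 0.567).

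Among 14 other genes described as Notch targets in some tissue, 3 rose and 5 fell (57.1% called, against 29.0% of all probe sets). SOX9, a transcription factor of progenitor cells, rose by 1.41 (SE 0.11), ID3, an inhibitor of DNA binding, by 1.28 (SE 0.10), and the receptor tyrosine kinase ERBB2 by 1.26 (SE 0.10), with adjusted p of 2.8e-05, 2.74e-05 and 4.04e-05. CCND1, cyclin D1, fell by 0.75 (SE 0.07, adjusted p = 9.64e-05), the adhesion receptor CD44 by 0.68 and the luminal transcription factor GATA3 by 0.51. MYC was at 0.17 (adjusted p = 0.327). All of these genes also answer to other pathways.

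**Figure D3:**
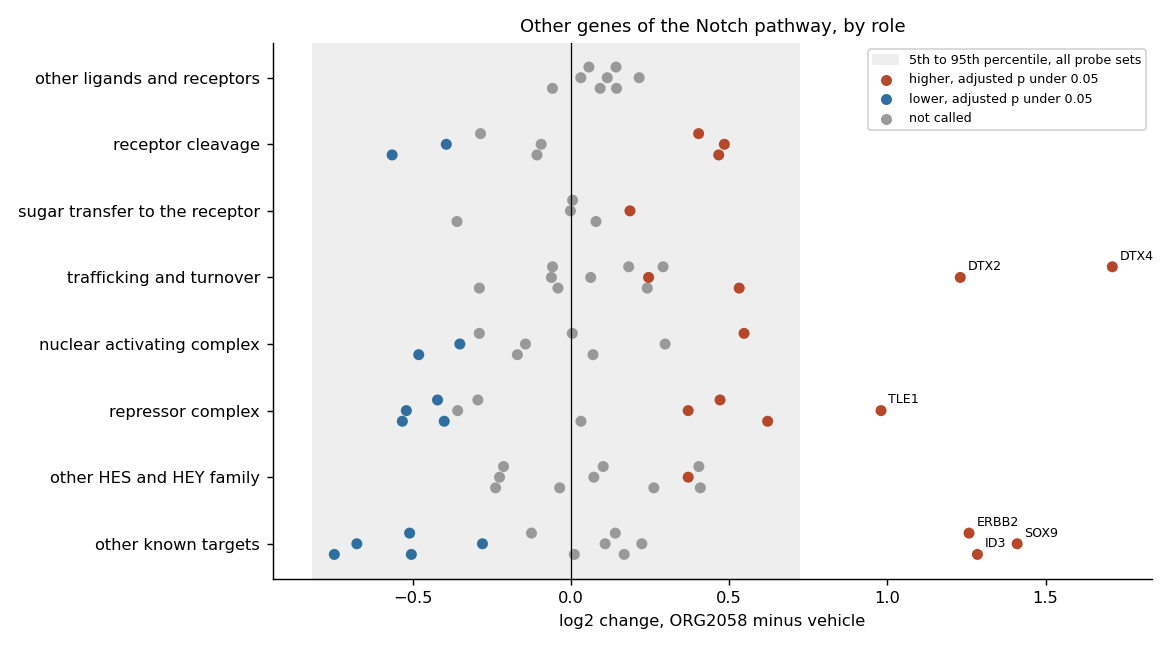
Log2 change, ORG2058 minus vehicle, of 77 further genes in 8 lists by role, among them JAGN1, which is not a Notch ligand or receptor. Each point is a gene, and colour shows the call at an adjusted p of 0.05 (limma). The grey band spans the 5th to 95th percentile of all probe sets (-0.82 to 0.72). DTX4, DTX2, TLE1, SOX9, ID3 and ERBB2 lie to the right of the band, and none lies to its left.

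Adding doxycycline to ORG2058 asked what became of these genes when ELF5 was held down. None of the 10 members passed the test (limma; 4 of 10 had an unadjusted p under 0.05, against 14% of all probe sets), and 0.0189% of all probe sets were called. With a variance trend and robust estimation 1 member, NOTCH2, was called (adjusted p = 0.0163), where 2.50% of all probe sets were.

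The 3 receptors had nearly equal positive changes. NOTCH1 was at 7.39, 7.49 and 7.47 with doxycycline, against 7.19, 7.10 and 7.18 without it, a change of 0.30 (SE 0.07, adjusted p = 0.143). NOTCH2 was at 10.78, 10.81 and 10.87 with doxycycline, against 10.59, 10.45 and 10.51 without it, a change of 0.30 (SE 0.08, adjusted p = 0.182). NOTCH3 was at 8.42, 8.43 and 8.51 with doxycycline, against 8.19, 8.09 and 8.22 without it, a change of 0.29 (SE 0.07, adjusted p = 0.153). For each receptor the lowest array with doxycycline lay above the highest without it, a separation upwards that 14.8% of all probe sets showed. The NOTCH2 probe set shared with NOTCH2NL was at 0.17 (adjusted p = 0.343).

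The receptor mRNAs are long. Of 65 measured genes listed from general knowledge as having very long mRNAs, a list written after this pattern was known from the same arrays, 62 had a positive change with doxycycline and the median was 0.44, against 0.03 for all probe sets. None of the 65 is among the Notch genes described here, and 0 of them passed the test (limma). By the same fit 57 of the 65 had an unadjusted p under 0.05, against 14% of all probe sets. In ORG2058 against vehicle the same genes had a median of -0.14. The part of transcript length in the receptor values was not tested.

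**Figure D4:**
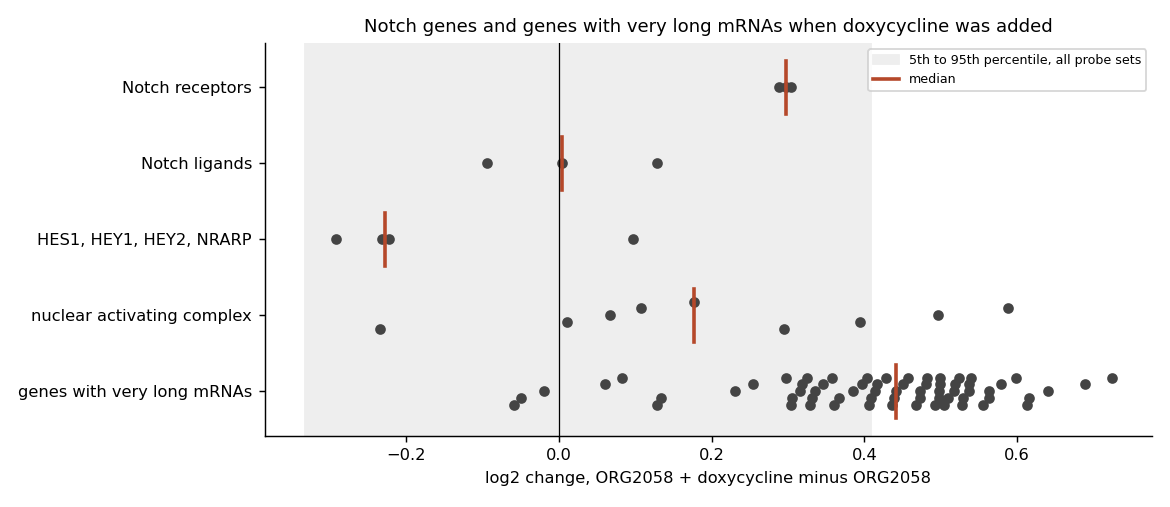
Log2 change, ORG2058 plus doxycycline minus ORG2058, for the Notch receptors, ligands, targets, the nuclear activating complex and 65 genes with very long mRNAs; points are genes, vertical bars medians, and the grey band the 5th to 95th percentile of all probe sets (-0.33 to 0.41). The receptors sit at 0.29 to 0.30, inside the band, and the long-mRNA genes have a median of 0.44.

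HES1 and NRARP had negative changes when doxycycline was added. HES1 was at 8.28, 8.39 and 7.93 with doxycycline, against 8.53, 8.45 and 8.50 without it (change -0.29, SE 0.13, adjusted p = 0.369), and 1 array, replicate 3, was well below the other 2. Without that array its change was -0.16. NRARP was at 7.56, 7.63 and 7.48 with doxycycline, against 7.82, 7.72 and 7.82 without it (change -0.23, SE 0.09, adjusted p = 0.301). For both genes the groups did not overlap, a separation downwards that 6.43% of all probe sets showed. HEY2 was at 0.10 (95% confidence interval -0.10 to 0.29), HEY1 at -0.22 (-0.64 to 0.20), JAG1 at 0.01 (-0.27 to 0.28), JAG2 at 0.13 (-0.03 to 0.29) and DLL1 at -0.09 (-0.40 to 0.22). The interval of HEY2 is narrow beside its change of -3.60 with ORG2058. How far its ORG2058 values (6.08 to 6.32) lie above background is unknown, so a further fall of HEY2 could go unseen.

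Of the 77 further genes 0 passed the test with doxycycline added (limma). An unadjusted p under 0.05 was found for 13 of the 77, beside 14% of all probe sets. The fit with a robust variance trend called 2 of the 77, beside 2.50% of all. Both counts are near those shares. The 3 with the smallest p were the acetyltransferases EP300 (change 0.50, adjusted p = 0.12) and CREBBP (0.39, adjusted p = 0.12) and the Mastermind coactivator MAML2 (0.59, adjusted p = 0.168). All 3 belong to the nuclear activating complex, in which 8 of 9 genes had a positive change, with a median of 0.18 and none called, beside 11901 of 21214 probe sets with a positive change and a median of 0.03. EP300 and CREBBP, too, have long mRNAs, and the part of transcript length in their values was not tested. MAML2 was dim, at 5.28, 5.71 and 5.49 with doxycycline, against 4.93, 5.08 and 4.71 without it. How far these MAML2 values lie above background is unknown.

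Against vehicle, the cells with ORG2058 and doxycycline showed the same directions as those with ORG2058 alone, a comparison that shares the vehicle arrays. Of the 10 members 6 were called, where 28.1% of all probe sets were: NOTCH2 and HES1 higher (15.6% of all) and HEY2, NRARP, NOTCH3 and JAG1 lower (12.5% of all). The change of HEY2 from vehicle was -3.50 with doxycycline and -3.60 without it. That of NRARP was -1.53 with doxycycline and -1.30 without it, and that of NOTCH2 1.51 with and 1.20 without. HES1 was the member called higher whose change was smaller with doxycycline, 1.05 with and 1.34 without. The change of NOTCH3 was -0.27 with doxycycline (adjusted p = 0.0187) and -0.56 without, and that of NOTCH1 -0.18 with (adjusted p = 0.0809) and -0.48 without. For JAG1 it was -0.42 both with doxycycline (adjusted p = 0.0306) and without, and for JAG2 -0.16 with (adjusted p = 0.146) and -0.29 without. Doxycycline without ORG2058 was not analysed here, so whether ORG2058 moved a member differently with doxycycline could not be tested. The comparison of the 2 progestin groups above called none. It cannot separate a changed response to ORG2058 from an effect that doxycycline or the hairpin would have without ORG2058. The NOTCH3 call was lost without vehicle replicate 2 (adjusted p = 0.0666) or progestin plus doxycycline replicate 1 (0.0683) or 2 (0.0571). That of JAG1 was lost (adjusted p between 0.0555 and 0.101) without vehicle replicate 1 or 2 or any 1 doxycycline array.

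Of the 77 further genes 16 were higher and 11 lower in this comparison (35.1% called, against 28.1% of all probe sets). Of all probe sets 15.6% were called higher and 12.5% lower. In the repressor complex TLE1 (1.18), KDM5A (0.67), SPEN (0.60) and CTBP2 (0.60) were higher and HDAC1 (-0.51), CTBP1 (-0.37), HDAC2 (-0.35) and TLE3 (-0.30) lower. In the nuclear activating complex KAT2B (0.72), EP300 (0.50) and CREBBP (0.46) were higher and RBPJ (-0.37) lower. Of the trafficking genes DTX4 (1.81), DTX2 (1.61), AAK1 (0.75) and NUMB (0.42) were higher and NUMBL, the relative of NUMB, lower (-0.42). FURIN (0.55) and NCSTN (0.52) were higher and ADAM17 (-0.40) and ADAM10 (-0.24) lower. SOX9 (1.62), ID3 (1.53) and ERBB2 (1.28) were higher and CCND1 (-0.76), GATA3 (-0.52) and CD44 (-0.46) lower. The TLE3 call was lost (adjusted p between 0.0529 and 0.112) without any 1 vehicle or doxycycline array or progestin replicate 2. That of ADAM10 was lost (0.0546 to 0.119) without vehicle replicate 1 or 2, progestin replicate 1 or any 1 doxycycline array. That of ADAM17 was lost (0.081 to 0.107) without vehicle replicate 1 or 2 or progestin plus doxycycline replicate 1 or 3.

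The genes whose 9 array values, each centred on its own mean, followed a member most closely were sought among the other 18416 single-symbol genes, for the member that fell most and the member that rose most. For HEY2 they were NCAM2, a neural adhesion molecule (root mean square difference 0.189 log2 units), GFRA1, the receptor of the growth factor GDNF (0.208), and CXCL12, a chemokine (0.24). Their changes with ORG2058 were -3.37, -3.84 and -3.52, a closeness to HEY2 that the choice of these genes fixes. When doxycycline was added they were at 0.24, -0.16 and -0.41, against 0.10 for HEY2. The doxycycline arrays, too, were among the 9 used to choose these genes, here and for HES1 below. For HES1 they were AGPAT4, a lipid acyltransferase (0.101), GCH1, which makes tetrahydrobiopterin (0.116), and NTAQ1, an amidase of N-terminal glutamine (0.117). Their changes were 1.32, 1.20 and 1.39 with ORG2058, and between -0.17 and -0.15 when doxycycline was added. With 3 groups the likeness rests mainly on the step between vehicle and ORG2058.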

How the data were processed

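The authors deposited 1 value table with log2 values for 33297 probe sets on 9 arrays. Per the submitters' processing notes, limma, PLIER, Affymetrix Expression Console and Affymetrix Power Tools were used, with no role, order or version stated. The background correction, the normalization between arrays and the genome build are not given in the sources used here. That the log2 scale applies to the deposited values was read from their range. The platform annotation gave 1 symbol to 19460 probe sets, several to 1754 and none to 12083. The 21214 with a symbol were tested with limma 3.58.1 in R 4.3.3 (1 mean per group over all 9 arrays, eBayes, two-sided, Benjamini-Hochberg, threshold 0.05). The highest mean single-symbol probe set stood for a gene. All 10 members matched a RefSeq gene table (GRCh38.p14), used for names and promoters. The fit was tested on simulated data. The design text calls the 3 replicates independent experiments, and the spread behind the p-values is that between them.

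The members and lists were chosen with earlier results of these data known. Besides the 10 members and ELF5, the text names the 16 called genes of the wider lists with the smallest p for ORG2058 against vehicle, for the other comparisons all called genes or the 3 with the smallest p, and 3 genes most like HEY2 and HES1. PSEN2, FURIN, ADAM10, ADAM17, RFNG, LFNG, AAK1, NUMB, DTX1, DTX3, RBPJ, MAML3, HES4, HES5, HEYL, MYC, DNER and NOTCH4 were added to the account of ORG2058 against vehicle after their values were seen, as examples of their lists. Alternatives tried were quantile normalization, median centring, a filter on dim probe sets, a variance trend with robust estimation, array weights, 16 added to the linear values, only 2 groups fitted, the replicate number as a block, another probe set and each array left out.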

Additional observations from a re-analysis of the deposited data

How the results depend on the processing

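The count of members called for ORG2058 against vehicle ranged from 6 to 8 when single arrays were left out and was 7 or 8 under the other settings; for ORG2058 plus doxycycline against vehicle it lay between 4 and 6 with 1 array left out and between 5 and 8 otherwise. With doxycycline added to ORG2058 it was 0 when single arrays were left out, and 1 in the fit with a robust variance trend. The count of further pathway genes in that comparison was 2 with the trend and 2 without the dimmest 25% of probe sets, where EP300 had an adjusted p of 0.048 and CREBBP of 0.0493, and 0 under the other alternatives. For ORG2058 against vehicle that count lay between 23 and 30 with 1 array left out and reached 41 with array weights.

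Values that changed sign were all uncalled and near 0. DLL1 in ORG2058 against vehicle was at 0.14 with array weights, and between -0.17 and 0.02 with 1 array left out. JAG1 with doxycycline added was at -0.019 with median centring, and between -0.10 and 0.11 with 1 array left out. Against vehicle, in cells with ORG2058 and doxycycline, DLL1 was at 0.061 with array weights, and HEY1 at -0.011 with quantile normalization and -0.014 with median centring, and between -0.11 and 0.22 with 1 array left out. In ORG2058 against vehicle, DTX3 was between -0.17 and 0.032 with 1 array left out, and NOTCH4 at -0.012 with quantile normalization and between -0.11 and 0.26 with 1 array left out. LFNG passed the test in that comparison under 4 alternatives, DNER under 2 and DTX1 under 1, while RFNG and HES4 did not pass with median centring (adjusted p = 0.0994 and 0.0681), nor did NUMB (0.0942). NOTCH1 in ORG2058 plus doxycycline against vehicle was called with quantile normalization (adjusted p = 0.011), median centring (0.0227) and array weights (0.0181), and JAG2 with median centring (0.0376) and array weights (0.023).

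The labels do not say whether arrays of the same replicate number share an experiment, and the values gave no clear sign of it. Deviations of same-numbered arrays from their group means correlated between -0.146 and 0.196, with 1 of 9 pairs above 0.1. Of the pairs with unlike numbers 2 of 18 were above 0.1. Among arrays of the other groups, 2 of 9 arrays correlated best with their own number. With 3 arrays per group this check cannot exclude a pairing. With the replicate block, 7 members were called for ORG2058 against vehicle, 5 for ORG2058 plus doxycycline against vehicle and 0 between them. The further genes called were 27, 25 and 0. The block ended the calls of JAG1 (adjusted p = 0.0635 and 0.0679), of RFNG (0.102) and NUMB (0.103) for ORG2058 against vehicle and of the ELF5 drop (0.203), and, against vehicle with doxycycline, of ADAM17 (0.0784), ADAM10 (0.0748) and TLE3 (0.0792). No member and no ELF5 probe set had a second single-symbol probe set to try.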
